A study of Mus musculus with 11 samples.

Results

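Krüppel-like factors are zinc finger transcription factors, and 8 of their genes (Klf2, Klf4, Klf6, Klf7, Klf9, Klf10, Klf13 and Klf16) were followed in mice that had been trained to work for food and in mice that had not, in the anterior cingulate cortex (ACC). They were chosen by gene symbol, as members of the family expressed in cortex, and are 8 of the 14974 genes with values. The values are FPKM (fragments per kilobase of gene and per number of mapped fragments), so levels can be set against each other roughly between genes. The gene lengths used are not given, and reads across introns were not placed. All 8 passed the filter on low values (at least 0.1 FPKM on average), as did 14936 genes in all.

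RNA-seq values were available for 11 ACC samples of adult C57BL/6 wild-type mice aged 3 to 5 months, 1 mouse per library. The 6 Trained mice (3 female, 3 male) had learned to press a lever for food over 9 days, with 1, then 5, then 10 presses per reward and 3 days on each schedule. The 5 Untrained mice (3 female, 2 male) were kept in the same chambers for as long and received rewards without pressing, and both groups were food-restricted. The paper left out a further Untrained male because it had few reads. Tissue was taken within 1 h of the last session. Libraries are called here by the numbers in their labels: Trained 1, 2, 3, 12, 13 and 14, and Untrained 5, 6, 10, 16 and 17. The comparison asks which transcripts differ after an animal has learned and just performed an action for reward, beyond the effects of the chamber, the food and the restriction.

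KLF proteins share a C-terminal DNA-binding domain of zinc fingers that recognizes GC-rich and CACCC sequences, and differ in the protein partners their N-terminal parts recruit. KLF2, KLF4, KLF6 and KLF7 are known mainly as activators, whereas KLF9, KLF10, KLF13 and KLF16 carry a motif that binds the SIN3A corepressor. In brain, several of them are early response genes, KLF9 responds to corticosteroids and thyroid hormone, KLF2 and KLF4 keep endothelium quiescent, and KLF family members raise or lower the capacity of neurons to grow axons.

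The depth, estimated from the steps between low values, was 17.8 to 27.1 M fragments in Trained libraries and 14.3 to 26.2 M in Untrained libraries, with 106 to 900 estimated fragments per library behind Klf4, the lowest of the 8 genes, and 6207 to 10545 behind Klf9, the highest. Untrained 10 stood apart in several sets of markers, and other libraries in single sets. The 3 markers of choroid plexus summed to 1.15 to 5.62 FPKM in the Trained libraries, against 170 FPKM in Untrained 10 and 1.76 to 11.8 FPKM in the other Untrained libraries. Untrained 16 stood apart in 5 interferon response genes, which summed to 7.08 to 10.6 FPKM in Trained libraries, against 39.5 FPKM in Untrained 16 and 9.54 and 9.44 FPKM in Untrained 10 and 17. Oligodendrocyte markers summed to 256 to 957 FPKM in Trained libraries, highest in Trained 3, against 314 to 550 FPKM in Untrained libraries. The 8 mural cell markers summed to 48.8 to 68.6 FPKM in Trained libraries, against 80.6 FPKM in Untrained 10 and 49.6 to 70.2 FPKM in the other Untrained libraries. The 6 leptomeningeal markers summed to 14.4 to 29.1 FPKM in Trained libraries, against 44.5 FPKM in Untrained 10 and 21.9 to 34.1 FPKM in the other Untrained libraries. Markers of excitatory neurons, the main cells of cortex, summed to 1612 to 1715 FPKM in Trained libraries, against 1901 FPKM in Untrained 10 and 1623 to 1698 FPKM in the other Untrained libraries. Astrocyte markers summed to 216 to 230 FPKM in Trained libraries, against 267 FPKM in Untrained 10 and 221 to 240 FPKM in the other Untrained libraries. These 5 markers did not move alike: 3 were highest of the 11 libraries in Untrained 10, whereas Aldh1l1 was lowest there (17.1 FPKM). The part of these marker differences in the Klf values was not tested, and no marker that had values was at 0 in a library. Because Untrained 10 was the highest of the 11 libraries for 6 of the 8 Klf genes, against 21.3% of all genes, and lay far above the other Untrained libraries by Dixon's criterion for 4 of the 8 (3.62% of all genes, with 1.81% far below), the comparisons were also made without it. Leaving out the highest Untrained library raises the difference, Trained minus Untrained, by construction, and leaving out the lowest ones lowers it, so neither direction of shift is evidence of its own. In bulk tissue, fewer cells of a type and less RNA per cell cannot be told apart.

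In level, the 8 genes formed a stable order at the top and a looser one below. Klf9 had the highest mean over the 11 libraries (82.7 FPKM), followed by Klf13 (52.1 FPKM) and Klf16 (29.4 FPKM), and each of these was above the next gene in 11 of 11 libraries. Thus 3 genes of the SIN3A-binding class led the order. Klf6 (17.3 FPKM), Klf10 (15.2 FPKM), Klf2 (14.2 FPKM) and Klf7 (11.4 FPKM) were not separated from their neighbours: Klf6 was above Klf10 in 7, Klf10 above Klf2 in 8 and Klf2 above Klf7 in 8 of 11 libraries. Klf4 (6.80 FPKM) was lowest, below Klf7 in 10 of 11 libraries. The genes also differed in how much they varied: the coefficient of variation was 31.7% in Trained and 60.7% in Untrained libraries for Klf2, 29.5% in Trained and 86.2% in Untrained libraries for Klf4, but 8.30% in Trained and 8.43% in Untrained libraries for Klf9.

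**Figure D1:**
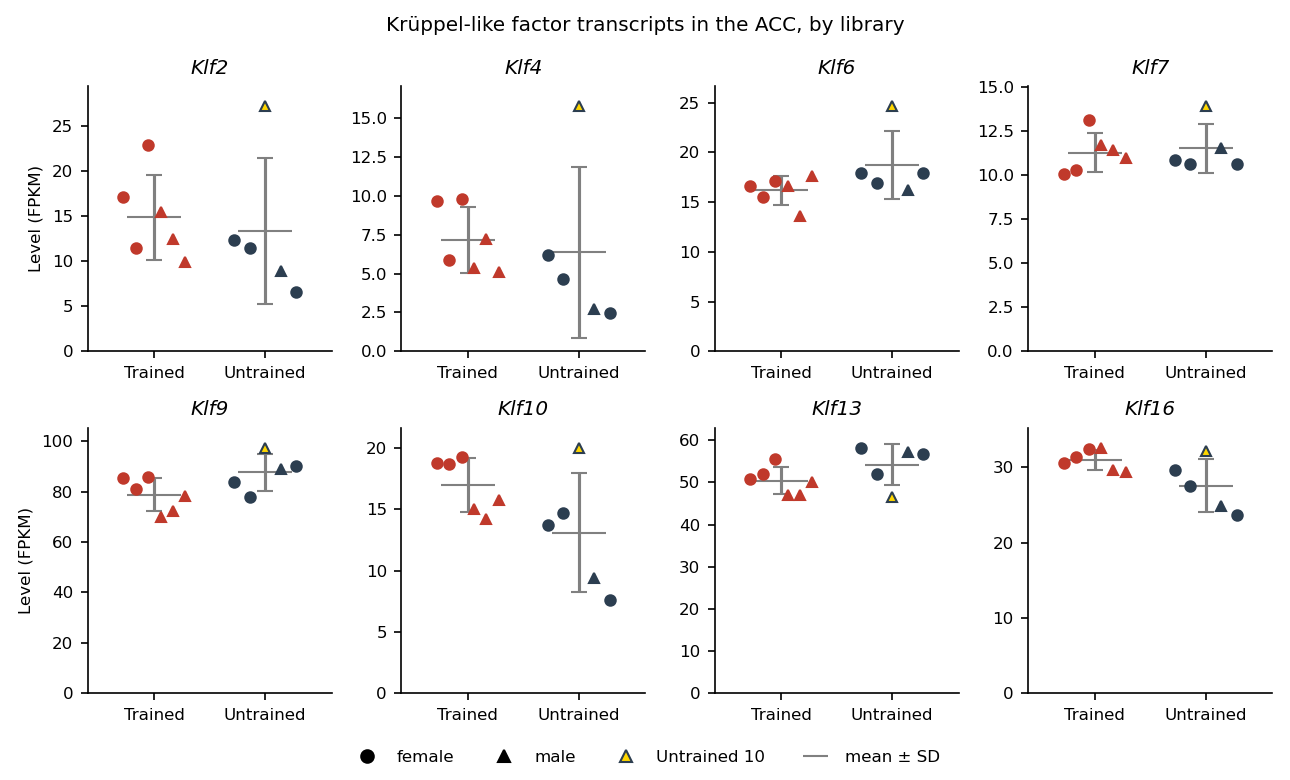
Level of each Klf gene in FPKM (vertical axis from 0) in the 6 Trained (left) and 5 Untrained (right) libraries. Each point is 1 mouse (circles female, triangles male), the yellow triangle is Untrained 10, and bars give mean ± SD. Groups overlap for all 8 genes, and Untrained 10 is the highest library for Klf2 (27.2 FPKM), Klf4, Klf6, Klf7, Klf9 and Klf10.

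The sequence before the start of transcription was available for 6 of the 8 genes, as 250 bases from RefSeq (GRCm38.p6). Those of Klf2 and Klf4, which moved together across libraries, and of Klf9, the most abundant of the 8, are shown 5′ to 3′ on the strand of the gene. Capitals mark matches on either strand to the cAMP response element core TGACG, the AP-1 site TGANTCA, the MEF2 box and the GC box GGGCGG. The SRF CArG box (in 1.47% of all windows), the NFY box CCAAT, the CACCC box and TATAAA were searched on both strands too and are not capitalized. Klf2 is at chr8:72318812-72319061 on the plus strand, Klf4 at chr4:55532476-55532725 on the minus strand and Klf9 at chr19:23140976-23141225 on the plus strand.
Klf2: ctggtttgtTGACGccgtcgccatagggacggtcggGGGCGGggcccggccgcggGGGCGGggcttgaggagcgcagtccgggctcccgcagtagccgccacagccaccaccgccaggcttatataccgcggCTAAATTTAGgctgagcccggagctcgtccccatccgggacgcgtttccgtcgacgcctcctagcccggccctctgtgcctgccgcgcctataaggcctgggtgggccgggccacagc
Klf4: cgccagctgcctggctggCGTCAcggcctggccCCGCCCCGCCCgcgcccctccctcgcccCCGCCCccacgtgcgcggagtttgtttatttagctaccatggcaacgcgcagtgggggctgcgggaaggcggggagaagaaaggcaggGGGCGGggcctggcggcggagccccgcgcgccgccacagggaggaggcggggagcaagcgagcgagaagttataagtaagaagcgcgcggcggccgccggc
Klf9: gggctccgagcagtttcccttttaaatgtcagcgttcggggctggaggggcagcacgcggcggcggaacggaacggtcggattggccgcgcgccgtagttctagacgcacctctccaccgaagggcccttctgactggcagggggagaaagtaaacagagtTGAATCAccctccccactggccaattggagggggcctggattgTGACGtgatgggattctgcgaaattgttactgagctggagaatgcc
The Klf2 and Klf4 windows are rich in G and C (71.2% and 74.0%, against a median of 52.4% over 32817 promoter windows), and each holds 1 TGACG (found in 17.8% of all windows) and several GC boxes (in 32.7% of all windows). In Klf4, 2 of the 4 GC boxes overlap, starting 217 and 212 bases before the start of transcription. Klf2 holds a MEF2 box, the site through which ERK5 signaling is known to act on this gene, 118 bases before the start, and 0.509% of all windows hold one. Klf9 (59.6% G and C) holds an AP-1 site 89 to 83 bases before the start (6.75% of all windows) and no GC box. A CACCC box, which KLF proteins themselves bind, lies in the Klf2 window 19 bases and in the Klf9 window 84 bases before the start, where it overlaps the AP-1 site by 2 bases. Distances are counted from the RefSeq start. The GENCODE start of Klf2 (72319033) lies inside the Klf2 window, so by that start its CACCC box is within the gene. CCAAT, held by 33.8% of all windows, occurs 3 times in the Klf9 window and not in the other two. The CArG box and TATAAA (12.4% of all windows) have no match in these 3 windows. A match describes the letters only, and 52.0% of all windows hold a CACCC.

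None of the 8 genes (0 of 8) passed the thresholds of the study, 1.5-fold or more with an unadjusted p below 0.01, in either direction. Of all genes, 0.147% passed as higher and 0.134% as lower in Trained mice by limma on log2(FPKM + 0.1). At an unadjusted p under 0.05, Klf10 and Klf16 were higher (2 of 8, where 4.13% of all genes were) and Klf9 was lower (1 of 8, against 4.2% of all genes were). The range of Trained libraries overlapped that of Untrained libraries for each of the 8 genes, whereas 0.375% of all genes lay entirely higher and 0.388% entirely lower in Trained libraries. No gene of 14936 had a Benjamini-Hochberg adjusted p under 0.05 by limma (lowest 0.334), although 617 genes higher and 628 lower had an unadjusted p under 0.05. The median log2 difference of the 8 genes was 0.07, with 4 higher and 4 lower means, and that of all genes was -0.0029.

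Without Untrained 10, 2 of the 8 genes (Klf4 and Klf10) passed the study's thresholds as higher in Trained mice, where 0.228% of all genes passed as higher and 0.114% as lower. In the same fit 4 genes (Klf2, Klf4, Klf10 and Klf16) were higher and Klf13 lower at an unadjusted p under 0.05, where 4.03% of all genes were higher and 3.84% lower. The smallest adjusted p over all genes was 0.236 in that fit. Because Untrained 10 was picked by its Klf values, passes and p-values without it, here and below, are descriptive and do not test training. The other extreme lay in Untrained 17, the library of lowest estimated depth (14.3 M fragments). It was the lowest of 11 libraries for Klf2, Klf4, Klf10 and Klf16, and the share of all genes lowest there was not counted. With Untrained 16 and 17 both left out, no Klf gene was higher at an unadjusted p under 0.05, where 2.85% of all genes were. In that fit Klf6 was lower, where 2.89% were. The group differences of Klf2, Klf4, Klf10 and Klf16 therefore moved with which Untrained libraries were counted.

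**Figure D2:**
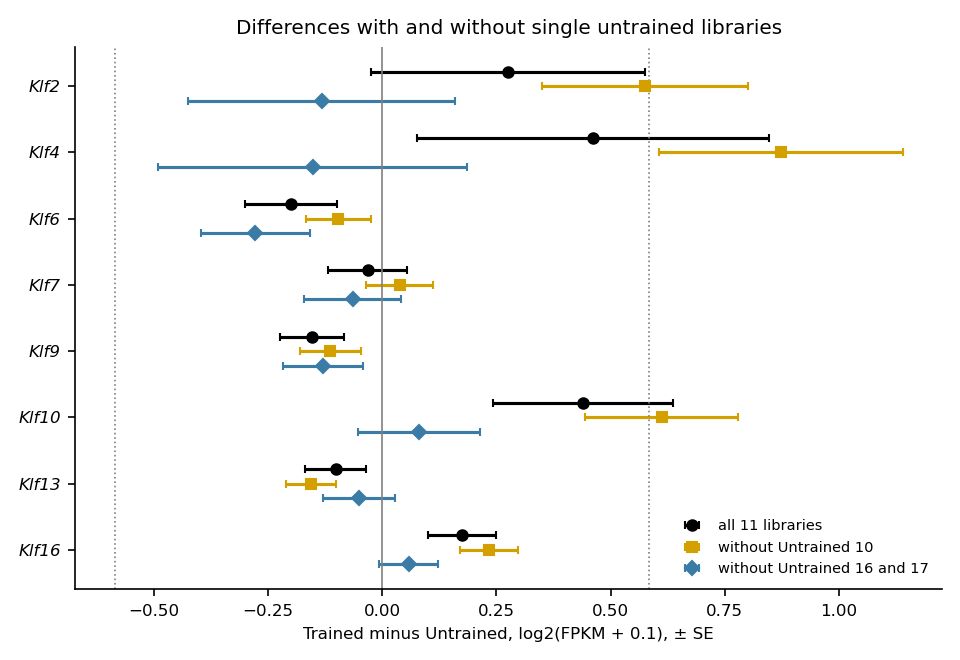
Difference between Trained and Untrained libraries of each Klf gene on the log2(FPKM + 0.1) scale (horizontal axis), with all 11 libraries (black circles), without Untrained 10 (yellow squares) and without Untrained 16 and 17 (blue diamonds). Bars are ± 1 SE from limma, the solid line is 0 and the dotted lines are the 1.5-fold threshold. For Klf4 the value is 0.46, 0.87 and -0.15 in the 3 fits, and for Klf9 it is -0.15, -0.11 and -0.13.

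Among the activators, Klf2 (chromosome 8, 72319033 to 72321656, plus strand, mm10, GENCODE M21 as for all genes here), which keeps endothelial cells and naive T cells quiescent, ranged from 9.95 to 22.8 FPKM with a median of 13.9 in Trained libraries. It was at 12.4, 11.4, 27.2, 8.94 and 6.60 FPKM in Untrained 5, 6, 10, 16 and 17. The Untrained libraries thus held both the highest and the lowest value of the 11. Means were 14.9 ± 4.71 FPKM in Trained (SD, n = 6) and 13.3 ± 8.08 FPKM in Untrained mice (SD, n = 5). The difference, 0.28 on the log2 scale (SE 0.300, 95% interval -0.37 to 0.92), did not exceed the spread between mice (limma, unadjusted p = 0.374, adjusted p = 0.790, two-sided exact permutation p = 0.457). Without Untrained 10, which had 2.77 times the mean of the other 4 Untrained libraries, it was 0.58 (limma, unadjusted p = 0.0253, adjusted p = 0.581, exact p = 0.0619), and without Untrained 16 and 17 it was -0.13.

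Klf4 (chromosome 4, 55527143 to 55532466, minus strand), a pluripotency factor that restrains axon growth in neurons and shares endothelial roles with Klf2, ranged from 5.103 to 9.80 FPKM with a median of 6.55 in Trained libraries. Untrained 5, 6, 10, 16 and 17 had 6.21, 4.63, 15.8, 2.75 and 2.44 FPKM. All 6 Trained libraries were above the Untrained median of 4.63 FPKM, and Untrained 10 was above every Trained library. Means were 7.17 ± 2.11 FPKM in Trained mice against 6.36 ± 5.48 FPKM in Untrained mice, a log2 difference of 0.46 (SE 0.386, 95% interval -0.37 to 1.29, limma unadjusted p = 0.251, adjusted p = 0.728, exact permutation p = 0.353). Untrained 10 had 3.94 times the mean of the other Untrained libraries, the highest such ratio of the 8 genes. Without it the difference was 0.87 (SE 0.267, limma unadjusted p = 0.00665, adjusted p = 0.466, exact p = 0.0333 over 210 splits), and without Untrained 16 and 17 it was -0.15.

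Klf2 and Klf4 levels followed each other closely across the 11 libraries (Pearson r = 0.931, permutation p = 0.0001, adjusted p = 0.0028 over 28 pairs of Klf genes). Spearman's rho was 0.909 (permutation p = 0.00033, adjusted p = 0.00924). With the libraries farthest from the median of Klf2, Untrained 10 and 17, left out, r was 0.830, and over the 6 libraries numbered 10 to 17 it was 0.936. The 5 libraries numbered 1 to 6 are too few for a value. Genes measured in the same libraries share their depth and composition, so the p-values here do not set a pair apart from other genes. Igfbp5 (r = 0.947), Lgi4 (r = 0.936) and Kif1c (r = 0.934) followed Klf2 more closely than Klf4 did. Klf2 and Klf4 also moved with Klf10 and Klf16 (r = 0.817 to 0.878), and Klf10 with Klf16 (r = 0.916), each with an adjusted permutation p of 0.0103 or lower. For these 5 pairs the rank correlations were weaker: rho was 0.818 for Klf2 and Klf16 (adjusted p = 0.0462), and adjusted p was 0.0526 for the other 4. For Klf10 and Klf16, r without the 2 libraries farthest from the median was 0.601. Klf6, Klf7, Klf9 and Klf13 were in no pair with an adjusted p under 0.05, and Klf4 and Klf9 had an r of 0.149.

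**Figure D3:**
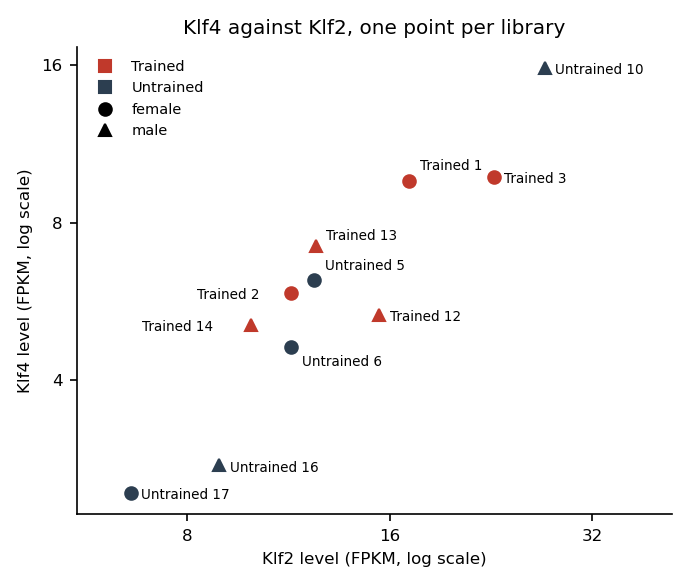
Level of Klf4 (vertical axis) against Klf2 (horizontal axis) in FPKM, both on log scales, with 1 labelled point per library, red for Trained and dark blue for Untrained mice (circles female, triangles male). The points follow a line (Pearson r = 0.931 on the log2 scale) that ends at Untrained 10 (27.2 and 15.8 FPKM) and at Untrained 17 (6.60 and 2.44 FPKM).

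Markers of vessel cells were read beside this pair, since Klf2 and Klf4 are known from endothelium. The 10 endothelial markers summed to 83.4 to 89.7 FPKM in Trained libraries against 92.4 FPKM in Untrained 10, up to 92.1 FPKM in the other Untrained libraries, and 78.6 and 74.4 FPKM in Untrained 16 and 17, the lowest of the 11. None of the 10 had an unadjusted p under 0.05 between the groups, with 5 means higher and 5 lower in Trained mice (median log2 difference 0.00012). Cldn5, a tight junction protein of the blood-brain barrier, was at 18.8 ± 2.05 FPKM in Trained mice against 17.1 ± 3.36 FPKM in Untrained mice. Itm2a went the other way, at 15.3 ± 0.887 FPKM in Trained mice against 16.2 ± 2.21 FPKM in Untrained mice. Endothelial marker sums were thus lowest in the same 2 libraries as Klf2 and Klf4 and, by a small margin, highest in the same one, over a much narrower range, and their part in the result was not tested.

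Of 11 measured genes of the MEKK3-ERK5-MEF2 cascade that drives Klf2 and Klf4, and of the CCM complex that restrains it, 1 was higher and none lower at an unadjusted p under 0.05, with a median log2 difference of 0.0014. The higher one, Map3k3, encodes MEKK3, the kinase at the head of the cascade, and was at 9.01 ± 0.371 FPKM in Trained mice against 8.06 ± 0.794 FPKM in Untrained mice (log2 difference 0.16, limma unadjusted p = 0.0351, adjusted p = 0.578). Together the 11 genes summed to 294 to 348 FPKM in Trained libraries, against 418 FPKM in Untrained 10 and 294 to 326 FPKM in the other Untrained libraries. Of the 11, 5 were highest in Untrained 10. Most of the sum there came from Mef2c (202 FPKM), Mef2d (106 FPKM) and Mef2a (41.0 FPKM). Map2k5 and Heg1 were also highest there, whereas the kinase genes Map3k2, Map3k3 and Mapk7 were highest in Trained libraries. Of 5 endothelial genes known to depend on KLF2 or KLF4, none passed and the mean was lower in Trained mice for all 5 (median log2 difference -0.12). The most abundant, the sphingosine phosphate receptor gene S1pr1, which astrocytes also express, was at 40.3 ± 3.09 FPKM in Trained mice against 46.1 ± 7.14 FPKM in Untrained mice. Eng, which encodes the TGF-beta coreceptor endoglin, was at 6.69 ± 0.947 FPKM in Trained mice against 7.04 ± 1.41 FPKM in Untrained mice. The means of Klf2 and Klf4 were higher, not lower, in Trained mice. By library, the 5 endothelial genes summed to 52.4 to 64.3 FPKM in Trained libraries, against 79.3 FPKM in Untrained 10. The other Untrained libraries had 57.5 to 66.1 FPKM. Of the 5, 2 were highest of the 11 libraries in Untrained 10, as Klf2 and Klf4 were. All 5 had their lowest Untrained value in Untrained 16 or 17. A link with the Klf2 and Klf4 levels was not tested.

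Klf6 (chromosome 13, 5861482 to 5870394, plus strand), a growth-restraining factor that promotes axon regrowth in zebrafish, ranged from 13.6 to 17.6 FPKM with a median of 16.6 in Trained libraries. It was at 17.9, 16.9, 24.7, 16.2 and 17.9 FPKM in Untrained 5, 6, 10, 16 and 17. No Trained library was above the Untrained median of 17.9 FPKM, but the ranges overlapped. With means of 16.2 ± 1.46 FPKM in Trained mice against 18.7 ± 3.40 FPKM in Untrained mice, the log2 difference was -0.20 (SE 0.102, 95% interval -0.42 to 0.02, limma unadjusted p = 0.0706, adjusted p = 0.612, exact permutation p = 0.0823). It was -0.10 without Untrained 10 (unadjusted p = 0.203) and -0.25 without Untrained 16 (unadjusted p = 0.0374).

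Klf7 (chromosome 1, 64029447 to 64122282, minus strand), which promotes axon growth and the expression of neurotrophin receptors, had the smallest difference of the 8 genes. Trained libraries ranged from 10.04 to 13.1 FPKM (median 11.2), and Untrained 5, 6, 10, 16 and 17 had 10.9, 10.6, 13.9, 11.5 and 10.6 FPKM. The means, 11.3 ± 1.11 FPKM in Trained mice against 11.5 ± 1.39 FPKM in Untrained mice, differed by -0.03 on the log2 scale (95% interval -0.22 to 0.15, limma unadjusted p = 0.722). The noncoding gene Gm26649 on the opposite strand covers 39.3% of the exon bases of Klf7, and the sources do not say whether counting used the strand, so reads of the 2 cannot be told apart.

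Of the 5 measured genes in a list of axon growth genes on which KLF6 or KLF7 is known to act, 1 was lower and none higher at an unadjusted p under 0.05, with a median log2 difference of -0.08. That gene was Ntrk2, which encodes TrkB, the receptor for brain-derived neurotrophic factor, at 56.8 ± 1.94 FPKM in Trained mice against 63.3 ± 3.73 FPKM in Untrained mice (log2 difference -0.16, limma unadjusted p = 0.00640, adjusted p = 0.537). Its ranges, 54.0 to 59.2 FPKM in Trained libraries against 58.6 to 68.4 FPKM in Untrained libraries, met at the edge.

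Among the SIN3A-binding class, Klf10 (chromosome 15, 38291463 to 38300706, minus strand), an early gene induced by TGF-beta, was higher in most Trained than in most Untrained libraries. Trained libraries ranged from 14.2 to 19.3 FPKM with a median of 17.2, and Untrained 5, 6, 10, 16 and 17 had 13.7, 14.7, 19.996, 9.42 and 7.64 FPKM. All 6 Trained libraries were above the Untrained median, and 5 of 6 were above each Untrained library other than Untrained 10, which was above all of them. Means were 16.9 ± 2.21 FPKM in Trained mice against 13.1 ± 4.84 FPKM in Untrained mice, a log2 difference of 0.44 (SE 0.197, 95% interval 0.02 to 0.86, limma unadjusted p = 0.0432, adjusted p = 0.589, exact permutation p = 0.0996). Without Untrained 10 it was 0.61 (SE 0.167, limma unadjusted p = 0.00323, adjusted p = 0.420, exact p = 0.00952).

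The higher Klf10 level in Trained mice rested on few Untrained libraries: the difference was 0.34 without Untrained 16 (unadjusted p = 0.116), 0.27 without Untrained 17 (unadjusted p = 0.135) and 0.08 without both. Leaving out Trained 1, 2 or 3 also took the unadjusted p to between 0.0764 and 0.0793. The difference was 0.41 in the libraries numbered 1 to 6 and 0.40 in those numbered 10 to 17. The interaction with number range was -0.0086 (95% interval -0.82 to 0.81, unadjusted p = 0.982). By sex it was 0.71 in females and 0.12 in males (interaction -0.58, SE 0.382, unadjusted p = 0.153). In the libraries numbered 1 to 6, Trained values of 18.7 to 19.3 FPKM stood against 13.7 to 14.7 FPKM in Untrained libraries (exact p = 0.1, the smallest possible with 3 against 2). In those numbered 10 to 17, Trained values (14.2 to 15.8 FPKM) lay within the Untrained range, 7.64 to 19.996 FPKM. The exact permutation p there was 0.4. Trained libraries numbered 1 to 6 were all female and those numbered 10 to 17 all male, and their Klf10 values did not overlap.

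Klf10 was read beside 12 activity-induced early genes, a list chosen because it was known to be higher in Trained mice of these data, which makes its direction no independent evidence. All 12 were higher at an unadjusted p under 0.05, 10 of them past the thresholds of the study. Untrained 17 was the lowest of the 11 libraries in 12 of the 12, as it was for Klf10, and the share of all genes lowest there was not counted. Untrained 10, which had the highest Klf10 value of the 11 libraries, was above every Trained library in none of the 12 early genes and below every one of them in 9. It was the highest Untrained library for Fosb, Junb, Egr1, Egr2 and Dusp1. For Fosb, Egr1 and Dusp1 it lay within the Trained range (for Egr1, 240 to 342 FPKM in Trained libraries, against 299 FPKM in Untrained 10). Of 14 ligands, receptors, SMADs and targets of TGF-beta signaling, none was higher and a single one lower at an unadjusted p under 0.05, with a median log2 difference of -0.03. The lower one was Smad3, which encodes a signal transducer of the pathway, at 21.9 ± 1.52 FPKM in Trained mice against 24.1 ± 1.46 FPKM in Untrained mice (log2 difference -0.14, limma unadjusted p = 0.0366, adjusted p = 0.578).

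Klf16 (chromosome 10, 80567124 to 80577321, minus strand), a repressor that binds GC boxes and was first studied for its action on dopamine receptor genes, had the narrowest spread among Trained mice. Trained libraries ranged from 29.4 to 32.6 FPKM (median 30.9), a coefficient of variation of 4.38%, and Untrained 5, 6, 10, 16 and 17 had 29.6, 27.5, 32.2, 24.8 and 23.6 FPKM. Again 5 of 6 Trained libraries were above each Untrained library other than Untrained 10. Means were 31.0 ± 1.36 FPKM in Trained mice against 27.6 ± 3.48 FPKM in Untrained mice, a log2 difference of 0.18 (SE 0.0740, 95% interval 0.02 to 0.33, limma unadjusted p = 0.0333, adjusted p = 0.578, exact permutation p = 0.0433). It was 0.23 without Untrained 10 (unadjusted p = 0.00318, exact p = 0.00952) and 0.06 without Untrained 16 and 17 (unadjusted p = 0.386). Leaving out Trained 2, 3 or 12 or Untrained 6, 16 or 17 took the unadjusted p to between 0.0508 and 0.104, with differences of 0.12 to 0.18.

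**Figure D4:**
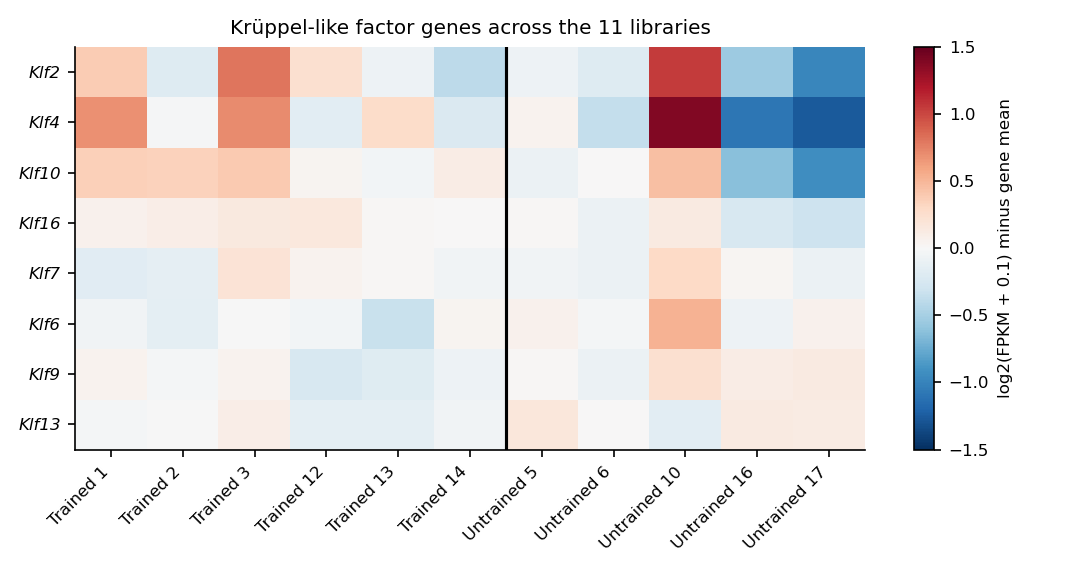
Deviation of each Klf gene (rows) from its mean over the 11 libraries (columns, Trained left of the black line and Untrained right) on the log2(FPKM + 0.1) scale, red above and blue below the mean. Klf2, Klf4, Klf10 and Klf16 share their lowest library, Untrained 17, and Klf13 is the only one of the 8 with its lowest value in Untrained 10 (46.6 FPKM).

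Klf9 (chromosome 19, 23141226 to 23168134, plus strand), a target of glucocorticoid and thyroid hormone receptors that acts in neurite growth and in the maturation of hippocampal neurons, was the one gene of the 8 lower at an unadjusted p under 0.05. Trained libraries ranged from 69.9 to 85.7 FPKM with a median of 79.6, and Untrained 5, 6, 10, 16 and 17 had 83.6, 77.7, 97.4, 88.9 and 90.2 FPKM. No Trained library was above the Untrained median of 88.9 FPKM. Means were 78.7 ± 6.54 FPKM in Trained mice against 87.5 ± 7.38 FPKM in Untrained mice, a log2 difference of -0.15 (SE 0.0696, 95% interval -0.30 to -0.0029, limma unadjusted p = 0.0463, adjusted p = 0.593, exact permutation p = 0.0736). Leaving out Trained 2, 12, 13 or 14 or Untrained 10, 16 or 17 took the unadjusted p to between 0.0546 and 0.116, with differences of -0.11 to -0.16.

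The Klf9 difference was uneven across the libraries. In those numbered 10 to 17, the 3 Trained libraries had 69.9 to 78.3 FPKM and the 3 Untrained libraries 88.9 to 97.4 FPKM, without overlap (log2 difference -0.33, exact p = 0.1, the smallest possible with 3 against 3). In those numbered 1 to 6, Trained libraries had 80.8 to 85.7 FPKM and Untrained libraries 77.7 and 83.6 FPKM (log2 difference 0.06). The interaction with number range was -0.38 (SE 0.0970, 95% interval -0.59 to -0.17, limma unadjusted p = 0.00191, adjusted p = 0.998), where 3.33% of all genes had an unadjusted p under 0.05. By sex, the difference was -0.34 in males (69.9 to 78.3 FPKM in Trained, 88.9 and 97.4 FPKM in Untrained) and 0.0043 in females, an interaction of -0.34 (SE 0.108, unadjusted p = 0.00774, adjusted p = 0.959), where 4.1% of all genes had an unadjusted p under 0.05. The 3 Trained males are the 3 Trained libraries numbered 10 to 17, so sex and number range cannot be told apart among Trained mice. What the numbers stand for is not given in the labels, but 9.51% of all genes differed between the ranges, and 2.13% between the sexes, at an adjusted p under 0.05 with training in the fit, and none of the 8 Klf genes did. None of the other 7 Klf genes had an unadjusted interaction p under 0.05 with either.

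**Figure D5:**
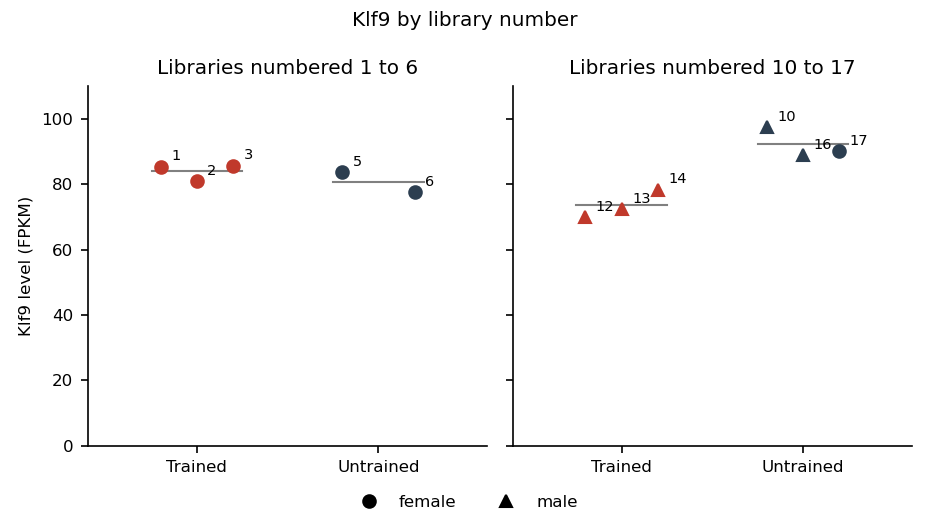
Klf9 level in FPKM (vertical axis from 0) in libraries numbered 1 to 6 (left panel) and 10 to 17 (right panel), Trained left of Untrained in each, with 1 numbered point per library (circles female, triangles male) and lines at the means. Trained libraries 12 to 14 (69.9 to 78.3 FPKM) lie below Untrained libraries 10, 16 and 17 (88.9 to 97.4 FPKM), whereas libraries 1 to 6 overlap.

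Of 14 receptors for corticosteroids and thyroid hormone and genes these receptors induce, 1 was higher and another lower at an unadjusted p under 0.05, with a median log2 difference of 0.02. Per1, a clock gene that glucocorticoids and neuronal activity both induce, was at 55.2 ± 6.51 FPKM in Trained mice against 42.1 ± 7.97 FPKM in Untrained mice (log2 difference 0.40, limma unadjusted p = 0.00524, adjusted p = 0.537). Fkbp5, a co-chaperone of the glucocorticoid receptor and a sensitive target of it, was at 14.1 ± 0.670 FPKM in Trained mice against 18.8 ± 5.34 FPKM in Untrained mice (log2 difference -0.36, unadjusted p = 0.0356, adjusted p = 0.578). Its values were 13.3 to 14.9 FPKM in Trained mice against 11.3 to 25.4 FPKM in Untrained libraries, highest in Untrained 16 and lowest in Untrained 10. Sgk1, Tsc22d3, Mt1, Mt2, Nfkbia and Sult1a1 were also lowest of the 11 libraries in Untrained 10. In contrast, 3 of the 14 genes were highest there, as was Klf9. A link with the Klf9 level was not tested.

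Klf13 (chromosome 7, 63886351 to 63938915, minus strand), a close relative of Klf9 that regulates cytokine genes in T cells and heart development, ranged from 46.9 to 55.6 FPKM with a median of 50.5 in Trained libraries. Untrained 5, 6, 10, 16 and 17 had 58.2, 52.1, 46.6, 57.3 and 56.7 FPKM. It was the only one of the 8 genes with its lowest value in Untrained 10, and no Trained library was above the Untrained median of 56.7 FPKM. Means were 50.4 ± 3.23 FPKM in Trained mice against 54.2 ± 4.85 FPKM in Untrained mice, a log2 difference of -0.10 (SE 0.0658, 95% interval -0.24 to 0.04, limma unadjusted p = 0.145, adjusted p = 0.660, exact permutation p = 0.154). Without Untrained 10 it was -0.15 (SE 0.0547, limma unadjusted p = 0.0150, adjusted p = 0.558, exact p = 0.0333). Klf9 and Klf13 had an r of 0.397 over 11 libraries and 0.871 over the 10 without Untrained 10.

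Of 13 corepressors and coactivators that KLF proteins bind, none was higher and 2 were lower at an unadjusted p under 0.05, with a median log2 difference of -0.05. One of them, Hdac2, a histone deacetylase of the SIN3 complexes, was at 33.7 ± 1.69 FPKM in Trained mice against 37.1 ± 3.34 FPKM in Untrained mice (log2 difference -0.14, limma unadjusted p = 0.0402, adjusted p = 0.587).

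Of 18 other genes of the KLF and SP family, 15 had values, and 1 was higher and another lower at an unadjusted p under 0.05, with a median log2 difference of 0.01. Sp2, a ubiquitous factor, was at 5.40 ± 0.387 FPKM in Trained mice against 6.43 ± 1.00 FPKM in Untrained mice (log2 difference -0.24, limma unadjusted p = 0.0252, adjusted p = 0.570). Sp7, the osteoblast factor osterix, was at 0.268 ± 0.0492 FPKM in Trained mice against 0.192 ± 0.0366 FPKM in Untrained mice (log2 difference 0.33, unadjusted p = 0.0410, adjusted p = 0.587), close to the filter on low values. Without Untrained 10 none of the 15 was higher or lower at an unadjusted p under 0.05.

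The genes whose levels followed each Klf gene most closely were taken from the 12806 genes that averaged 1 FPKM or more, by Pearson r over the 11 libraries. The libraries share depth and composition, the partners are the extremes of many, and the values are a description with no p. Klf2 was followed by Igfbp5, a secreted binding protein of insulin-like growth factors (r = 0.947, rho = 0.964), and by Lgi4 (r = 0.936) and Kif1c (r = 0.934). Klf4 was followed by Mvd, an enzyme of cholesterol synthesis (r = 0.966, rho = 0.964), by Ets1, a transcription factor of endothelial and lymphoid cells (r = 0.956, rho = 0.918), and by Topors (r = 0.942). These values changed little without Untrained 10 (r = 0.948 for Igfbp5, 0.962 for Mvd and 0.932 for Ets1).

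Klf10 was followed by 9130221H12Rik (r = 0.964), Zfp61 (r = 0.958) and Egr1, an early gene of neuronal activity (r = 0.954, rho = 0.791, r = 0.963 without Untrained 10). Egr1 itself was at 294 FPKM in Trained mice against 209 FPKM in Untrained mice on average (log2 difference 0.57, limma unadjusted p = 0.0184). Klf16 was followed by Zfp703 (r = 0.947), Igsf8 (r = 0.946) and Lmna (r = 0.939), Klf13 by Wipi2 (r = 0.955), Garnl3 (r = 0.915) and Tmem177 (r = 0.897), and Klf9 by Ccdc25 (r = 0.923), Hsd17b12 (r = 0.905) and Pitpnc1 (r = 0.899). Pitpnc1, a phosphatidylinositol transfer protein, was at 12.5 FPKM in Trained mice against 14.6 FPKM in Untrained mice on average (log2 difference -0.22, unadjusted p = 0.00837). Klf6 was followed by Rmi1 (r = 0.970), Rala (r = 0.946) and Gabra5 (r = 0.942), and Klf7, with the lowest r values, by Shisa2 (r = 0.892), Synm (r = 0.878) and Mccc2 (r = 0.876). Without Untrained 10 these were lower: r was 0.896 for Rmi1, 0.893 for Rala and 0.799 for Gabra5 with Klf6, and 0.870 for Shisa2, 0.768 for Synm and 0.778 for Mccc2 with Klf7. No gene was among the first 3 of more than 1 Klf gene.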

How the data were processed

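The members and gene lists were chosen with earlier results of these data known. Libraries were made with a stranded mRNA kit. Per the labels, the authors used Trimmomatic 0.38 for trimming, Bowtie2 2.3.5.1 for alignment (mm10), which does not place reads across introns, and Subread 1.6.3 (featureCounts) for counting, and they deposited FPKM values. The sources used here do not say how counts became FPKM, with which annotation and with which strand setting. The authors' edgeR 3.30.3 table of fold changes and p-values was not used.

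Here log2(FPKM + 0.1) of the 14936 genes averaging 0.1 FPKM or more was compared between Trained and Untrained libraries with limma 3.58.1 in R 4.3.3 (lmFit, eBayes with trend), with no covariate and Benjamini-Hochberg adjustment over all genes. The same fit was tested on simulated data. Single genes were also compared by a two-sided exact permutation test with 462 assignments of libraries to groups (210 without Untrained 10). Interactions with sex and with number range were tested in limma. FPKM are not counts, so no count test was run. Depth is an estimate: only 39.9 to 46.3% of low values came within 0.1 of whole fragments. Outlying libraries were sought by Dixon's criterion.

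Named genes were the 8 Klf genes, members of the gene lists with an unadjusted p under 0.05 (where none, the 2 with the highest mean), and the 3 genes most correlated with each Klf gene. Values of other genes come from the lists. Markers of cell types were given mainly as sums. Results on 1 listed gene are not reported here. Lists covered other KLF and SP genes, cofactors, the ERK5 cascade, endothelial targets, hormone, TGF-beta, early and axon growth genes, and markers of cell types. Alternatives were other pseudocounts, filters, scalings, covariates, weights and left-out libraries. Of the 14974 gene names, 96.2% were found in GENCODE M21, and 23 are numbers in place of names. Promoter sequences are from RefSeq.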

Additional observations from a re-analysis of the deposited data

Results flagged for a closer look

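In Untrained 10, 4 of the 8 Klf genes lay far above the other 4 Untrained libraries: Klf2 at 27.2 FPKM (others 6.60 to 12.4), Klf4 at 15.8 FPKM (others 2.44 to 6.21), Klf6 at 24.7 FPKM (others 16.2 to 17.9) and Klf7 at 13.9 FPKM (others 10.6 to 11.5). Each gap to the nearest library, divided by the range of the 5 Untrained libraries, was above Dixon's critical value of 0.71 (0.720 for Klf2, 0.718 for Klf4, 0.798 for Klf6 and 0.733 for Klf7). Of 16 groups tested (8 genes in 2 groups), 4 had such a library, and each time it was Untrained 10. Chance gives about 1 in 20 for independent groups. These groups share their libraries and all 4 values come from 1 mouse, so the count does not measure an excess over chance. Over all genes, 3.62% had such a high value in Untrained 10, and 1.81% a low one. No Trained library stood apart in this way for any of the 8 genes.

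The difference of Klf9 between Trained and Untrained mice was itself different between sexes, by -0.34 on the log2 scale (males minus females, limma unadjusted p = 0.00774, adjusted p = 0.959), and between libraries numbered 10 to 17 and 1 to 6, by -0.38 (unadjusted p = 0.00191, adjusted p = 0.998). Of 16 such interactions tested over the 8 genes, these were the 2 with an unadjusted p under 0.05, and neither passed the adjustment over all genes. All 3 Trained males had lower Klf9 values than both Untrained males, and all 3 Trained libraries numbered 10 to 17 had lower values than the 3 Untrained ones of that range.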

How the results depend on the processing

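No Klf gene passed the study's thresholds under any alternative that kept all 11 libraries, and the Klf genes past an unadjusted p of 0.05 depended on the setting. The number lower at that p (1, Klf9) was 0 with median centring and 0 with sex as a covariate, and the number higher (2) was 0 without Untrained 16 and 17 and 3 with array weights and without Untrained 10 and 16. Klf9 also missed that p with array weights (0.179), without Untrained 16 and 17 (0.168) and without Untrained 10 and 16 (0.248), where Klf13 or Klf6 was the 1 lower. Reversed directions were those of Klf7 with array weights (0.0098) and without Untrained 10 and 16 (0.064), and of Klf2 (-0.13) and Klf4 (-0.15) without Untrained 16 and 17. Over all genes, 22 higher and 20 lower past the thresholds became 12 and 0 with a pseudocount of 1, and the lower ones became 6 among genes averaging 1 FPKM or more, 13 with array weights and 11 without Untrained 10 and 16. Of the other KLF and SP genes, the 1 higher at an unadjusted p under 0.05 became 0 with a pseudocount of 1, with only genes averaging 1 FPKM or more, and without Untrained 10 and 16. The 1 lower became 0 with array weights and without Untrained 10 and 16, and 2 without Untrained 16 and 17. A larger pseudocount and a stricter filter act on low genes by construction, and for the other settings the cause was not tested.

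With each library left out in turn, 0 to 2 Klf genes were higher and 0 to 0 lower past the study's thresholds, and 0 to 4 were higher and 0 to 1 lower at an unadjusted p under 0.05. The 4 and the 2 came without Untrained 10. Log2 differences ranged from 0.07 to 0.58 for Klf2, 0.21 to 0.87 for Klf4, -0.25 to -0.10 for Klf6, -0.076 to 0.039 for Klf7 (0.00034 without Trained 1 and 0.039 without Untrained 10), -0.19 to -0.11 for Klf9, 0.27 to 0.61 for Klf10, -0.15 to -0.07 for Klf13 and 0.12 to 0.23 for Klf16. All genes past the thresholds ranged from 16 to 35 higher and 11 to 35 lower, and other KLF and SP genes at an unadjusted p under 0.05 from 0 to 1 higher and 0 to 2 lower. Scaling moved the median of all genes little (-0.0033 with quantile normalization and -0.0052 with median centring). No paired analysis was possible because no library number occurs in both groups. The 6 and 5 mice and the estimated depth limit what small differences can be seen.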
